A study of Homo sapiens with 9 samples.

Results

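The miR-181 family was followed in the colorectal carcinoma line HCT116, in HCT-Oxa-c, a subline resistant to oxaliplatin, and in HCT-FU-c, a subline resistant to 5-fluorouracil. Its members were taken by name, as the rows hsa-miR-181a-5p, hsa-miR-181a-3p, hsa-miR-181a-2-3p, hsa-miR-181b-5p, hsa-miR-181c-5p, hsa-miR-181c-3p and hsa-miR-181d-5p of the count table. They are 7 of the 1198 mature miRNAs counted, and all 7 passed the filter on low counts.

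A miRNA hairpin is cut into a short duplex, one strand of which is loaded into an Argonaute protein and guides it to messenger RNAs that pair with the seed near its 5′ end. In the miR-181 hairpins the 5p strand is the usual guide, and the 3p strand is the less abundant partner. miR-181a is best known for tuning T cell receptor signalling in developing lymphocytes, and in carcinoma cells the family has been linked to TGF-beta signalling and the epithelial-mesenchymal transition.

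HCT116 is an established human line and served as the parental control. HCT-Oxa-c was derived from it by continuous culture in rising doses of oxaliplatin, a platinum drug, and HCT-FU-c in the same way with 5-fluorouracil, an inhibitor of thymidylate synthesis. With 3 biological replicates of each line there were 9 small RNA libraries. Each drug is represented by 1 subline, so an effect of the drug and a property of that subline cannot be told apart.

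All 4 members of the 5p arm carry the same seed, bases 2 to 8 counted from the 5′ end, and their sequences are given first because the family is defined by it. The RefSeq mature sequences on GRCh38.p14 are shown 5′ to 3′, with the seed in capitals. RefSeq held a sequence for 1059 of the 1198 miRNAs, and among those no other row of the table carried this seed.

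hsa-miR-181a-5p: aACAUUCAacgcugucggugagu

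hsa-miR-181b-5p: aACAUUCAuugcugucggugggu

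hsa-miR-181c-5p: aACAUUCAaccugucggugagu

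hsa-miR-181d-5p: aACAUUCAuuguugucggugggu

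Positions were counted from 1 at the 5′ end. From miR-181a-5p to miR-181b-5p the changes are A9U, C10U and A21G, and from miR-181b-5p to miR-181d-5p the single change is C12U. miR-181c-5p equals miR-181a-5p without the G at position 11. The rule by which the counting allowed mismatches is not given in the sources used here. miR-181d-5p held 2.26 to 8.35 reads for every 100 of miR-181b-5p, with the 3 HCT-Oxa-c libraries lowest at 2.26 to 3.28.

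The 3p strands tell the genomic copies apart, since miR-181a-5p and miR-181b-5p are each made in identical form from both chromosome 1 and chromosome 9. miR-181a-3p comes from MIR181A1 and miR-181a-2-3p from MIR181A2. Here the 3 bases that differ between these strands are in capitals, and going from miR-181a-2-3p to miR-181a-3p they are C5U, U6C and C16U. Positions 5 and 6 lie in the seed.

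hsa-miR-181a-3p: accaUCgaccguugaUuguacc

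hsa-miR-181a-2-3p: accaCUgaccguugaCuguacc

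The seed of miR-181c-3p starts 1 base off. Among the rows with a RefSeq sequence, no other shared the seed of any of these 3p members.

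hsa-miR-181c-3p: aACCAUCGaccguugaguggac

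The hairpins of the 2 miR-181a copies are shown because their loops and flanks differ although they release the same 5p strand. Both arms are in capitals.

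MIR181A1: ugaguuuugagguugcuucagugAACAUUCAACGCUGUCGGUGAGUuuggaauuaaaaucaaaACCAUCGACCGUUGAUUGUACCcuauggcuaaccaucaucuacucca

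MIR181A2: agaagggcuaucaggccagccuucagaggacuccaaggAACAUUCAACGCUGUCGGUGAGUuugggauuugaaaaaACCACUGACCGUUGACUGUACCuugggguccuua

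The family lies in 3 hairpin pairs (GRCh38, GENCODE 29). MIR181A1 (chr1:198859044-198859153, minus strand) and MIR181B1 (chr1:198858873-198858982, minus strand) are 61 bases apart, within intron 2 of the non-coding host gene MIR181A1HG. MIR181A2 (chr9:124692442-124692551, plus strand) and MIR181B2 (chr9:124693710-124693798, plus strand) are 1158 bases apart, within intron 1 of MIR181A2HG and on the opposite strand to intron 2 of NR6A1, which encodes an orphan nuclear receptor. MIR181C (chr19:13874699-13874808, plus strand) and MIR181D (chr19:13874875-13875011, plus strand) are 66 bases apart, within intron 1 of 2 annotated transcripts of NANOS3, which encodes an RNA-binding protein of germ cells. The miR-23a/27a/24-2 cluster lies 38.0 kb from MIR181C, on the opposite strand.

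**Figure D1:**
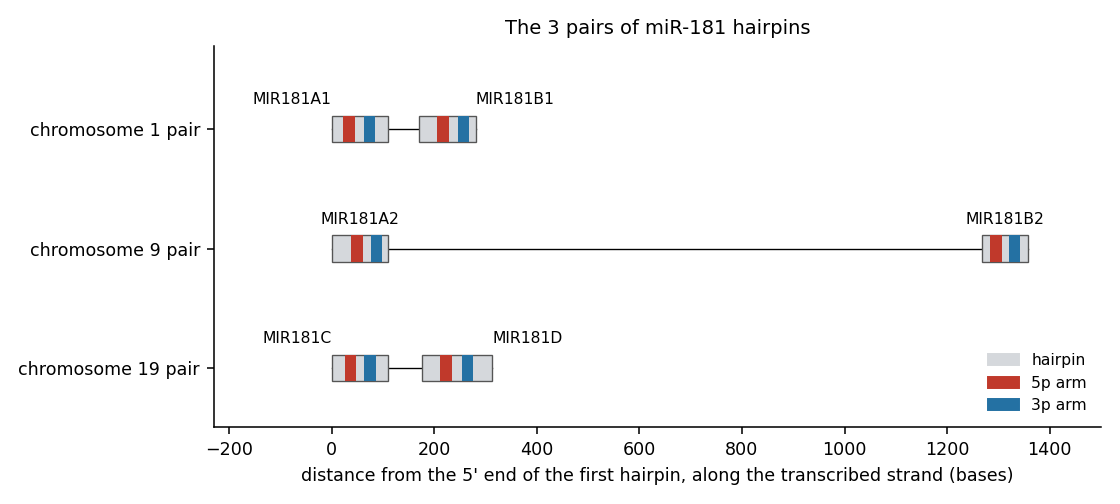
The 3 pairs of miR-181 hairpins, drawn to scale against the distance in bases from the start of the first hairpin of each pair along the transcribed strand, with hairpins in grey, 5p arms in red and 3p arms in blue. The chromosome 1 and chromosome 19 hairpins are 61 and 66 bases apart and the chromosome 9 hairpins 1158 bases apart.

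Libraries held 856383 to 2207538 counted reads, with the replicate 3 library the shallowest of each line, and miR-21-5p took 40.0% to 57.1% of them. The replicate 3 libraries stood apart in all 3 lines. The deviations of libraries from their line means correlated at 0.62 to 0.67 among the replicate 3 libraries, and at -0.62 to -0.40 between them and replicates 1 or 2, while replicates 1 and 2 were not separated from each other. The summed level of 5 blood cell miRNAs was 2.10 to 11.3 CPM (each count scaled to a common library size by TMM) in replicates 1 and 2 and 88.1 to 269 CPM in replicate 3. The liver miRNA miR-122-5p did not exceed 3.67 CPM in replicates 1 and 2 and lay at 23.8 to 60.1 CPM in replicate 3, and the 3 mesenchymal miRNAs present in the table summed to 177 to 343 CPM and 402 to 682 CPM. The 6 markers of colorectal epithelium were summed at 10262 to 12944 CPM in all 9 libraries, and of the 2 nerve cell miRNAs miR-124-3p did not exceed 2 counts while miR-9-5p lay at 2561 to 6156 counts a library. Every 5p and miR-181a 3p member was also higher in replicate 3 than in the mean of replicates 1 and 2 of its line, by 0.48 to 1.82 on the log2 scale. The part of these other-cell miRNAs in the miR-181 levels was not tested. Each result below is therefore given without a block, with the replicate number as a block and, where it matters, in replicates 1 and 2 alone.

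The mean levels were ordered as follows. In HCT116 miR-181a-5p stood at 980 ± 363 CPM (SD, n = 3) and ranked 64 among the 1198 miRNAs. miR-181b-5p followed at 481 ± 293 CPM. miR-181a-3p at 77.8 ± 27.6 CPM and miR-181a-2-3p at 69.4 ± 56.0 CPM did not differ beyond their spread. miR-181d-5p at 29.2 ± 14.8 CPM and miR-181c-5p at 20.8 ± 6.25 CPM did not either, and miR-181c-3p was lowest at 6.69 ± 2.64 CPM. HCT-Oxa-c kept this order, with miR-181a-5p at 1975 ± 764 CPM. In HCT-FU-c miR-181a-2-3p (65.3 ± 43.9 CPM) stood above miR-181a-3p (43.2 ± 33.0 CPM). The spread between libraries was wider than this difference, but miR-181a-2-3p was the higher strand within each HCT-FU-c library. It was counted 74, 51 and 95 times there, and miR-181a-3p 45, 30 and 67 times. miR-181a-5p exceeded miR-181b-5p in all 9 libraries, by 1.65 to 3.21 times. The mature members are 22 or 23 bases long, so lengths hardly enter these comparisons.

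**Figure D2:**
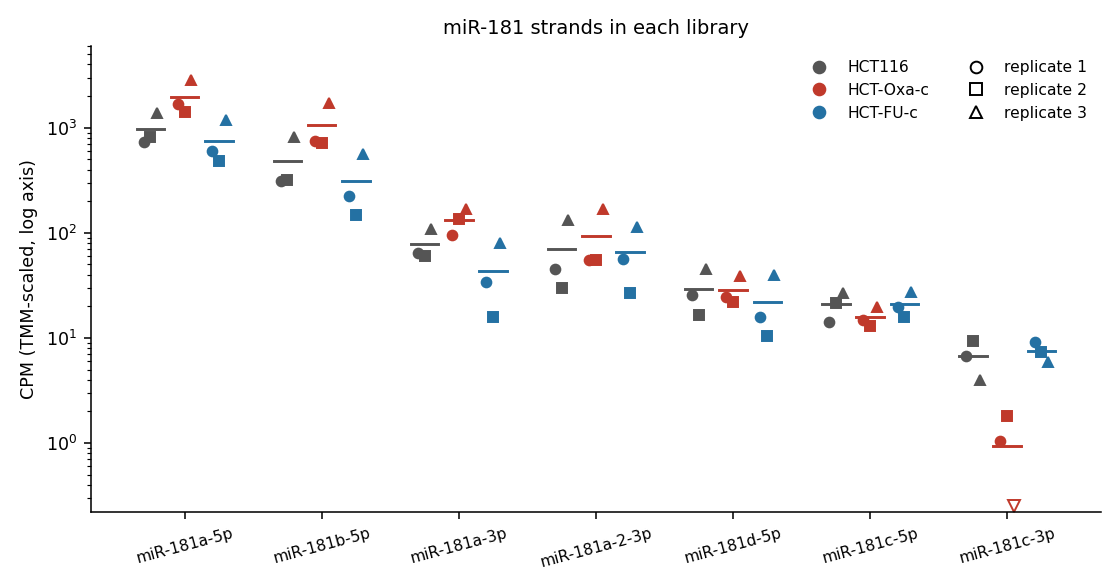
Level of each miR-181 member in each of the 9 libraries, in TMM-scaled CPM on a log axis, with colours for the lines, symbols for the replicate numbers and a bar at each mean of 3. The open triangle at the lower edge is a count of 0. The HCT-Oxa-c mean lies above those of the other lines for miR-181a-5p, miR-181b-5p, miR-181a-3p and miR-181a-2-3p. It lies below them for miR-181c-3p and miR-181c-5p. For miR-181a-2-3p and miR-181c-5p the means differ within their spread. Replicate 3 is the highest of each line for every member but miR-181c-3p.

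The 4 strands that share the seed summed to 1078, 1167 and 2286 CPM in HCT116, to 2458, 2162 and 4631 CPM in HCT-Oxa-c, while HCT-FU-c reached 857, 654 and 1803 CPM. Within every replicate number HCT-Oxa-c was the highest of the lines and HCT-FU-c the lowest. As a share of all reads the sum was 0.112% to 0.200% for HCT116, 0.219% to 0.415% for HCT-Oxa-c and 0.0838% to 0.165% for HCT-FU-c. miR-181a-5p and miR-181b-5p made up nearly all of it, and the chromosome 19 strands miR-181c-5p and miR-181d-5p held 1.26% to 1.61% of the sum in HCT-Oxa-c, below their 3.15% to 3.71% in HCT116 and 3.70% to 4.14% in HCT-FU-c.

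The comparison of HCT-Oxa-c with HCT116 asked which strands differed in cells selected under oxaliplatin. The chromosome 1 and 9 guide strands were about 2 times as high in HCT-Oxa-c, the chromosome 1 passenger strand miR-181a-3p was higher as well, and the passenger strand miR-181c-3p was lower. With the replicate block, 4 of 7 members passed the threshold, 3 higher and 1 lower, against 14.7% of all 367 miRNAs tested (9.54% higher and 5.18% lower). Without the block edgeR called none of the 7 and 2.45% of all miRNAs, with 2 of 7 and 38 of 367 at an unadjusted p under 0.05, and DESeq2 called 1 member and 23 miRNAs.

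miR-181a-5p stood at 730, 814 and 1396 CPM in HCT116 and at 1669, 1413 and 2845 CPM in HCT-Oxa-c. The ranges did not overlap, although the lowest HCT-Oxa-c library was close to the highest HCT116 library. The log2 fold change was 1.01 (SE 0.43, edgeR adjusted p = 0.426) without the block and 1.00 (SE 0.15, adjusted p = 3.73e-05) with it. In replicates 1 and 2 alone it was 1.01 (SE 0.20, adjusted p = 0.00362) without a block.

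miR-181b-5p stood at 309, 315 and 819 CPM in HCT116 and at 750, 714 and 1727 CPM in HCT-Oxa-c. Replicate 3 of HCT116 lay above replicates 1 and 2 of HCT-Oxa-c, so the ranges overlapped, but HCT-Oxa-c was higher within each of the 3 replicate numbers. The log2 fold change was 1.15 (SE 0.61, edgeR adjusted p = 0.584) without the block and 1.18 (SE 0.16, adjusted p = 1.65e-05) with it. Replicates 1 and 2 alone gave 1.25 (SE 0.22, adjusted p = 0.00167) without a block.

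The passenger strands of miR-181a come from separate loci. miR-181a-3p, from chromosome 1, was counted 94, 84 and 82 times in HCT116 and 183, 303 and 163 times in HCT-Oxa-c. Its CPM ranges overlapped, and HCT-Oxa-c was higher within each of the 3 replicate numbers. Its log2 fold change was 0.78 (SE 0.53, edgeR adjusted p = 0.809) without the block and 0.82 (SE 0.27, adjusted p = 0.0418) with it. This call was lost in the blocked fit when HCT116 replicate 2, HCT116 replicate 3, HCT-Oxa-c replicate 1 or HCT-Oxa-c replicate 2 was left out, with adjusted p of 0.104, 0.201, 0.173 and 0.449, and in the last of these fits the log2 fold change was 0.44.

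miR-181a-2-3p, from chromosome 9, was counted 66, 42 and 100 times in HCT116 and 105, 123 and 164 times in HCT-Oxa-c. Its CPM ranges overlapped too, and HCT-Oxa-c was again higher within each of the 3 replicate numbers. Its log2 fold change of 0.50 with the block (SE 0.24, edgeR adjusted p = 0.190) did not pass the test. Without the block the value was 0.43 (SE 0.72, adjusted p = 0.990).

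The chromosome 19 hairpins gave the least abundant members. miR-181c-3p was counted 10, 13 and 3 times in HCT116 but 2, 4 and 0 times in HCT-Oxa-c, although the HCT-Oxa-c library was the larger within each replicate number. Its CPM ranges did not overlap, and the log2 fold change was -2.55 (SE 0.77, edgeR adjusted p = 0.166) without the block and -2.57 (SE 0.79, adjusted p = 0.0291) with it. DESeq2 called it without the block as well (adjusted p = 0.0326). The call was lost in the blocked fit when any library of either line or HCT-FU-c replicate 3 was left out, at adjusted p of up to 0.227, with log2 fold changes of -3.10 to -2.29. In replicates 1 and 2 alone the adjusted p was 0.0514 with the block.

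The guide strand of the same hairpin, miR-181c-5p, was counted 21, 30 and 20 times in HCT116 and 28, 29 and 19 times in HCT-Oxa-c, with overlapping CPM ranges. Its log2 fold change was -0.39 with the block (SE 0.38, edgeR adjusted p = 0.600). miR-181d-5p, from the neighbouring hairpin, was counted 38, 23 and 34 times in HCT116 and 47, 49 and 38 times in HCT-Oxa-c, and with adjusted p = 0.964 in the blocked fit no difference was detectable at this depth. Of the 7 members 2 had CPM ranges that did not overlap between HCT-Oxa-c and HCT116, against 16.1% of all miRNAs tested.

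HCT-FU-c was set against HCT116 to ask the same of cells selected under 5-fluorouracil. miR-181a-3p and miR-181b-5p were lower in HCT-FU-c in the blocked fit, and 2 of 7 members passed the threshold, both lower, against 5.45% of all miRNAs (1.63% higher and 3.81% lower). Without the block edgeR called none of the 7 and 0% of all miRNAs, with 0 of 7 and 15 of 367 at an unadjusted p under 0.05, and DESeq2 called no member and 4 miRNAs. No member had ranges that did not overlap, against 8.72% of all miRNAs.

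miR-181b-5p stood at 223, 149 and 561 CPM in HCT-FU-c, lower than HCT116 within each replicate number. Its log2 fold change was -0.63 (SE 0.60, edgeR adjusted p = 0.997) without the block and -0.69 (SE 0.17, adjusted p = 0.0173) with it. In replicates 1 and 2 alone the value was -0.80 (SE 0.22, adjusted p = 0.0642) without a block and -0.82 (SE 0.22, adjusted p = 0.0174) with it. The call was lost in the blocked fit without HCT116 replicate 2, HCT116 replicate 3, HCT-Oxa-c replicate 1 or HCT-FU-c replicate 2, at adjusted p of 0.0840, 0.0683, 0.108 and 0.132.

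miR-181a-3p was counted 45, 30 and 67 times in HCT-FU-c, and its CPM was lower than in HCT116 within each replicate number. Its log2 fold change was -0.87 (SE 0.54, edgeR adjusted p = 0.968) without the block and -1.01 (SE 0.29, adjusted p = 0.0431) with it. In replicates 1 and 2 alone it was -1.41 (SE 0.35, adjusted p = 0.0390) without a block. In the blocked fit the call was lost without HCT116 replicate 1, 2 or 3, HCT-Oxa-c replicate 1 or 3, or HCT-FU-c replicate 2, at adjusted p of 0.0607 to 0.303, and without HCT-FU-c replicate 2 the log2 fold change was -0.56.

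Both HCT-FU-c calls were also lost when libraries were scaled by their total counts, at adjusted p of 0.0774 for miR-181a-3p and 0.0701 for miR-181b-5p in the blocked fit. That scaling moved the median of all miRNAs in this comparison from 0.02 to 0.19, and relative to the median the members were as low as before.

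miR-181a-5p stood at 599, 479 and 1175 CPM in HCT-FU-c, lower than HCT116 within each replicate number, and its log2 fold change of -0.43 with the block (SE 0.15, edgeR adjusted p = 0.0901) did not pass the test. It passed in the blocked fit with DESeq2 (adjusted p = 0.0486) and without HCT-FU-c replicate 3 (-0.59, edgeR adjusted p = 0.0413), while the blocked value was -0.31 (adjusted p = 0.403) without HCT-FU-c replicate 2 and -0.27 (adjusted p = 0.309) with total counts. miR-181a-2-3p was counted 74, 51 and 95 times in HCT-FU-c, and its log2 fold change of -0.03 with the block was above 0 under total-count scaling, at 0.13. miR-181d-5p was counted 21, 20 and 33 times, with a blocked log2 fold change of -0.50 (SE 0.34, adjusted p = 0.506). miR-181c-5p at 26, 30 and 23 counts and miR-181c-3p at 12, 14 and 5 counts lay within the range of HCT116 or close to it, and their blocked log2 fold changes of 0.00 and 0.14 did not pass the test.

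The difference between the sublines was tested directly. HCT-Oxa-c exceeded HCT-FU-c in miR-181a-5p, miR-181b-5p and miR-181a-3p and was below it in miR-181c-3p. With the replicate block 4 of 7 members passed, 3 higher and 1 lower, against 26.4% of all miRNAs (14.7% higher and 11.7% lower). Without the block edgeR called none of the 7 and 4.36% of all miRNAs, with 4 of 7 and 62 of 367 at an unadjusted p under 0.05. It called 3 members and 23 miRNAs when HCT-FU-c replicate 3 was left out, and 4 members and 67 of 380 miRNAs in replicates 1 and 2 alone, and DESeq2 called 4 members and 43 miRNAs on all libraries. The ranges of 4 members did not overlap, against 22.9% of all miRNAs.

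The log2 difference was 1.43 (SE 0.15, edgeR adjusted p = 1.66e-07) for miR-181a-5p, 1.87 (SE 0.17, adjusted p = 1.21e-08) for miR-181b-5p and 1.83 (SE 0.29, adjusted p = 5.25e-05) for miR-181a-3p with the block. Without the block the adjusted p were 0.116, 0.169 and 0.142, and in replicates 1 and 2 alone, without a block, 6.13e-05, 1.68e-05 and 0.000185. These 3 strands kept an adjusted p of at most 0.0124 in the blocked fit when any one library was left out. For miR-181c-3p the log2 difference was -2.72 (SE 0.77, adjusted p = 0.0126) with the block, and it was lost without HCT-Oxa-c replicate 1 or 2 or HCT-FU-c replicate 1 or 3, at adjusted p of 0.0539 to 0.0899. miR-181a-2-3p (log2 difference 0.52, SE 0.24, adjusted p = 0.110), miR-181d-5p (0.55, SE 0.33, adjusted p = 0.260) and miR-181c-5p (-0.39, SE 0.38, adjusted p = 0.481) did not pass. Without HCT-FU-c replicate 1 miR-181a-2-3p passed, at 0.80 and adjusted p = 0.0404, while without HCT-Oxa-c replicate 2 it was 0.33 (adjusted p = 0.498) and without HCT-FU-c replicate 2 it was 0.34 (adjusted p = 0.485).

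**Figure D3:**
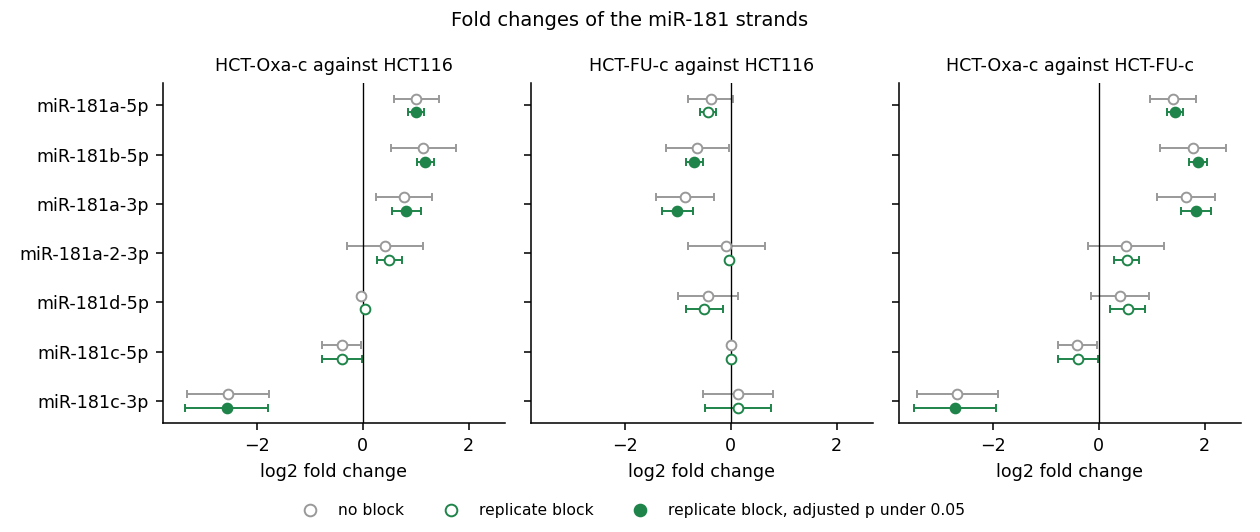
Log2 fold change of each miR-181 member in the 3 comparisons, from edgeR without the block (grey) and with the replicate block (green, filled where the adjusted p was under 0.05), with bars of 1 SE that are left out for values within 0.05 of 0. The block left the estimates nearly in place and shortened the bars of the chromosome 1 and 9 strands and, where drawn, of miR-181d-5p. The strands miR-181a-5p, miR-181b-5p and miR-181a-3p lay above 0 for HCT-Oxa-c and below 0 for HCT-FU-c when each was set against HCT116.

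The locus-specific strands were then set against each other within each library, which cancels depth and scaling. miR-181a-3p, the chromosome 1 strand, made up 58.8%, 66.7% and 45.1% of the miR-181a-3p and miR-181a-2-3p reads in HCT116. In HCT-Oxa-c its share was 63.5%, 71.1% and 49.8%. In HCT-FU-c it was 37.8%, 37.0% and 41.4%, below every library of the other lines. The exact 95% binomial intervals, which cover counting error only, ran from 33.7% to 49.4% for HCT-FU-c replicate 3 and from 37.7% to 52.6% for HCT116 replicate 3, so the neighbouring libraries of these lines overlapped within counting error, and the replicate 1 and 2 intervals of HCT-FU-c lay below those of HCT116.

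As a log2 ratio of miR-181a-3p to miR-181a-2-3p, HCT-FU-c was below HCT116 by -1.07 on average (-0.66 ± 0.14 against 0.41 ± 0.65, SD, n = 3 each). The two-sided exact permutation test gave p = 0.10, the smallest that 3 against 3 libraries allow, and 0.15 after adjustment over the 3 comparisons. Within the replicate numbers the differences were -1.23, -1.77 and -0.22, the same sign in 3 of 3 and small in replicate 3. HCT-Oxa-c differed from HCT116 by 0.29 (exact permutation p = 0.60), with nearly equal differences of 0.29, 0.30 and 0.28 within the replicate numbers, and leaving out 1 library moved the difference of means to between -0.06 without HCT116 replicate 3 and 0.64 without HCT-Oxa-c replicate 3. HCT-Oxa-c and HCT-FU-c differed by 1.36 (exact permutation p = 0.10, adjusted 0.15).

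**Figure D4:**
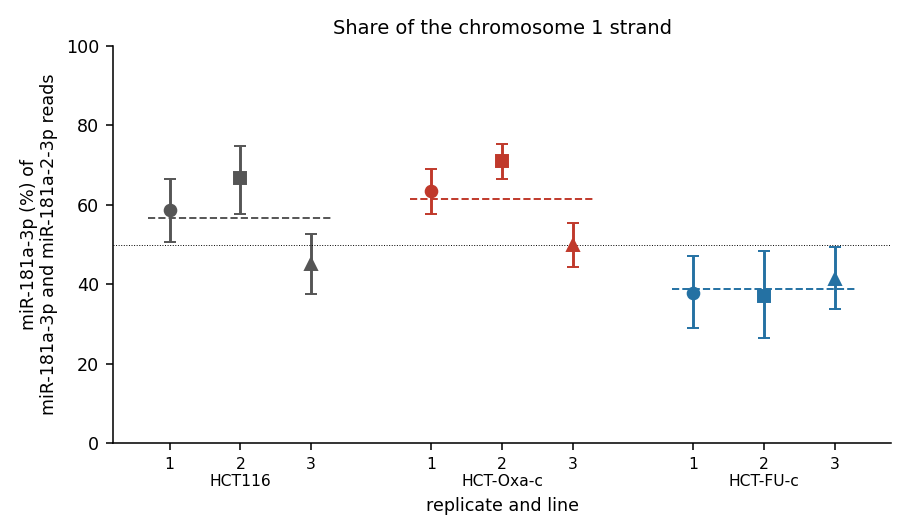
Share of miR-181a-3p, the chromosome 1 strand, among the reads of miR-181a-3p and miR-181a-2-3p in each library, in percent, with exact 95% binomial intervals and a dashed line at the mean of each line. The 3 HCT-FU-c libraries lie between 37.0% and 41.4%, below all HCT116 and HCT-Oxa-c libraries, and replicate 3 is the lowest library of HCT116 and of HCT-Oxa-c.

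The passenger strands of miR-181b, which the member list leaves out, mark the same loci. miR-181b-3p from chromosome 1 was counted 14, 15 and 19 times in HCT116, 72, 60 and 19 times in HCT-Oxa-c and 6, 8 and 9 times in HCT-FU-c. HCT-Oxa-c exceeded HCT-FU-c in this strand by 2.29 on the log2 scale with the block (SE 0.49, edgeR adjusted p = 0.00133), and the adjusted p was 0.0613 without the block and 0.0589 in the blocked fit without HCT-Oxa-c replicate 1. Against HCT116 the blocked log2 fold changes of 1.07 in HCT-Oxa-c (adjusted p = 0.124) and -1.22 in HCT-FU-c (adjusted p = 0.198) did not pass. In HCT-Oxa-c replicates 1 and 2 stood above every HCT116 library and replicate 3 did not, and without HCT-Oxa-c replicate 3 the blocked value was 1.72 (adjusted p = 0.0111). Without HCT-Oxa-c replicate 1 it was 0.63 (adjusted p = 0.614), and without HCT116 replicate 1 it was 0.74 (adjusted p = 0.511). Its chromosome 9 counterpart miR-181b-2-3p did not exceed 5 counts in any library. miR-181d-3p was counted 1 or 2 times in each HCT116 and HCT-FU-c library and 0 times in HCT-Oxa-c, and no fold is given at such counts.

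The other strand ratios did not separate the lines from HCT116. The log2 ratio of miR-181a-5p to miR-181b-5p averaged 1.13 ± 0.32 for HCT116, 0.95 ± 0.22 for HCT-Oxa-c and 1.39 ± 0.31 for HCT-FU-c (SD over 3 libraries), with an exact permutation p of 0.40 against HCT116 for both sublines and of 0.20 between the sublines. It was lowest in HCT-Oxa-c and highest in HCT-FU-c within each replicate number. miR-181a-5p exceeded its 2 passenger strands together by 5.74 to 11.3 times, and this guide to passenger ratio overlapped in all comparisons (exact permutation p of 0.30 to 0.70). The log2 ratio of miR-181c-5p to miR-181d-5p was -0.83 ± 0.14 for HCT-Oxa-c and 0.12 ± 0.58 for HCT-FU-c, a difference of -0.96 without overlap (exact permutation p = 0.10, adjusted 0.30), and HCT116 at -0.41 ± 0.69 overlapped both.

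A last ratio, chosen after the values were seen and given as a description, set the passenger against the guide strand of MIR181C. miR-181c-3p made up 32.3%, 30.2% and 13.0% of the miR-181c reads in HCT116 and 31.6%, 31.8% and 17.9% in HCT-FU-c. In HCT-Oxa-c it made up 6.67%, 12.1% and 0 of 19 reads. The limit taken for a count of 0, 3 counts, allows a share of up to 15.8% in that library, and the exact binomial interval reaches 17.6%. The totals of 19 to 44 reads a library leave wide intervals, such as 3.40% to 28.2% for HCT-Oxa-c replicate 2.

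Near the chromosome 19 pair, 4 tested strands of the miR-23a/27a/24-2 cluster went the other way from the chromosome 1 and 9 strands in HCT-Oxa-c. The list held 5 mature miRNAs of this cluster, of which 4 were tested. It left out miR-24-3p, which another cluster makes as well, so no value is given for that strand. Against HCT116 the blocked fit called all 4 tested strands lower in HCT-Oxa-c, beside 5.18% of all miRNAs called lower. The fit without the block called 1 of these strands and 2.45% of all miRNAs. The blocked median log2 fold change of the 4 strands was -0.91 beside -0.01 for all miRNAs. miR-23a-3p, the most abundant of these 4, was lower by -1.00 (SE 0.16, edgeR adjusted p = 9.29e-05), and it passed without the block too (adjusted p = 0.0471). miR-24-2-5p was lower by -1.46 (SE 0.23, adjusted p = 7.28e-05). In HCT-FU-c 1 of 4 was called, miR-27a-5p at -0.92 (SE 0.22, edgeR adjusted p = 0.0173), beside 3.81% of all miRNAs called lower. The list median was -0.20 beside 0.02. Between the sublines HCT-Oxa-c was lower for 3 of 4 in the blocked fit, beside 11.7% of all miRNAs, with a median of -0.79 beside -0.07. Without the block the edgeR adjusted p of the 4 were 0.0613 for miR-23a-3p, 0.0955 for miR-27a-3p, 0.322 for miR-24-2-5p and 0.912 for miR-27a-5p.

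Of 14 miRNAs linked to the epithelial-mesenchymal transition or TGF-beta signalling 13 were tested. In HCT-Oxa-c 3 were called higher and none lower with the block, against 9.54% and 5.18% of all miRNAs tested. The list median was -0.02 beside -0.01, and 1 was called without the block, against 2.45% of all miRNAs. Whether the counts of this list exceed the shares over all miRNAs was not tested. miR-205-5p, an epithelial miRNA that targets ZEB1 and ZEB2, was higher by 5.60 (SE 0.79, edgeR adjusted p = 2.01e-05) at 0 to 69 counts a library. miR-203a-3p, an epithelial miRNA that restrains stemness factors, was higher by 0.75 (SE 0.14, adjusted p = 0.000551), and miR-10b-5p by 0.75 (SE 0.21, adjusted p = 0.0175). In HCT-FU-c 1 was higher and 1 lower with the block, against 1.63% and 3.81% of all miRNAs, with a median of 0.07 beside 0.02. Without the block miR-34a-5p and miR-203a-3p had edgeR adjusted p of 0.901 and 0.913. miR-203a-3p was lower by -0.56 (SE 0.14, adjusted p = 0.0230) and miR-34a-5p, a p53 target, was higher by 0.72 (SE 0.18, adjusted p = 0.0230). Between the sublines HCT-Oxa-c had 3 higher and 2 lower calls in the blocked fit, against 14.7% and 11.7% of all miRNAs. Among the lower was miR-222-3p at -0.48 (SE 0.15, edgeR adjusted p = 0.0233). Without the block 2 were called, against 4.36% of all miRNAs. The blocked medians were -0.02 for the list and -0.07 for all miRNAs.

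The miRNAs whose levels most resembled those of the guide strands were found by Pearson's r of log2 CPM over the 9 libraries, which share lines, replicate numbers and depth. For miR-181a-5p they were miR-200a-5p (r = 0.96), miR-382-3p (0.96) and miR-27b-5p (0.96), and for miR-181b-5p they were miR-30d-5p (0.96), miR-200a-5p (0.96) and miR-100-5p (0.96). After the mean of each replicate number was subtracted, miR-203a-3p came first for both, with r = 0.986 for miR-181a-5p and 0.996 for miR-181b-5p. It was followed by miR-15a-5p (0.96) and miR-889-3p (0.96) for miR-181a-5p and by miR-30d-5p (0.98) and miR-100-5p (0.97) for miR-181b-5p. A high r can then arise for any miRNA with the same order of lines. These miRNAs were picked as the highest, and how many others come near such values is not given. Within the family miR-181a-5p and miR-181b-5p reached r = 0.99 on both scales, while r with miR-181a-5p was 0.89 for miR-181a-3p and 0.75 for miR-181a-2-3p after the subtraction.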

How the data were processed

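Small RNA libraries of 3 biological replicates of each line were analysed. The authors prepared them with a NEXTflex small RNA kit and sequenced them on a MiSeq in pooled runs, and deposited 1 table of read counts per mature miRNA. Beside each count they deposited a normalized signal, the count divided by 1 size factor per library, which was not tested. Their processing notes name CASAVA 1.8, Bowtie 1.1.2, DESeq2 and GRCh38.p7, without roles. The rules for mismatches and for reads from several loci are not given in the sources used here. No column was left unmapped.

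Differences were tested first by the quasi-likelihood method of edgeR 4.0.16 (glmQLFit and glmQLFTest, R 4.3.3) on the counts of all 9 libraries, with TMM scaling and the line as factor. filterByExpr (minimum count 10, minimum total 15) kept 367 of 1198 miRNAs, log2 fold changes used a prior count of 0.125, and Benjamini-Hochberg adjustment covered all 367 at a threshold of 0.05. Log2 ratios of strands were compared by two-sided exact permutation tests in scipy 1.17.1, and shares carry exact binomial intervals. On simulated counts of the 367 miRNAs, 200 were changed by 2 on the log2 scale in HCT-Oxa-c. Of these 80% were recovered with 1 false call without the block and 97% with 2 false calls with it. Replicate effects were simulated for the blocked fit only, and each fit used its own spread, so the shares cannot be compared. Smaller changes were not simulated.

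Total counts were 856383 to 2207538 per library. All same-numbered libraries deviated from their line means together (correlations 0.30 to 0.67), so the replicate numbers of the labels were taken to pair the libraries and the fit with the replicate block is given beside the main one. Replicates 1 and 2 correlated at 0.31 to 0.58, as highly as libraries of the same number, so the numbers separate replicate 3 only. Deviations from a line mean cancel out, so a replicate 3 that stands apart makes replicates 1 and 2 deviate together whatever their numbers. The correlations therefore do not show that the numbers 1 and 2 pair libraries. The biological coefficient of variation was 0.458 without and 0.174 with the block. The labels name no batch or date, and the run of each library is not given in the sources used here.

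Named were the 7 members, the other strands of their hairpins, the 3 miRNAs most like each of miR-181a-5p and miR-181b-5p, and called or example members of the miR-23a and epithelial-mesenchymal lists. The members and lists were chosen with earlier results of these data known. Alternatives covered scaling, filter, tool (DESeq2 1.42.0), libraries, block and each library left out. The blocked versions of these and the fits of replicates 1 and 2 alone were added after seeing the data. Positions come from GENCODE 29 (GRCh38) and sequences from RefSeq (GRCh38.p14).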

Additional observations from a re-analysis of the deposited data

Results flagged for a closer look

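The changes against HCT116 differed between the sublines for 4 of the 7 members, by the direct test of HCT-Oxa-c against HCT-FU-c with the replicate block in edgeR. The same test called 26.4% of all 367 miRNAs. The log2 difference was 1.43 for miR-181a-5p, 1.83 for miR-181a-3p, 1.87 for miR-181b-5p and -2.72 for miR-181c-3p. Within each of the 3 replicate numbers the first 3 strands were above HCT116 in HCT-Oxa-c and below it in HCT-FU-c. None of the 4 differences passed in edgeR without the block, and all 4 passed in DESeq2 without it. The groups hold 3 libraries each, too few for a search for single outlying libraries.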

How the results depend on the processing

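Each comparison was refitted with other scalings, filters, tools and sets of libraries. With the replicate block, edgeR called 54 miRNAs for HCT-Oxa-c against HCT116, 20 for HCT-FU-c against HCT116 and 97 between the sublines, in place of 9, 0 and 16, and 4, 2 and 4 members in place of 0 each. Replicates 1 and 2 alone, without a block, gave 43, 13 and 67 miRNAs and 2, 1 and 4 members. DESeq2 called 23, 4 and 43 miRNAs, and 1 member for HCT-Oxa-c against HCT116 and 4 between the sublines. Testing every miRNA with at least 1 count over all libraries gave 16 miRNAs for HCT-Oxa-c against HCT116 and 1 for HCT-FU-c. It gave 3 members between the sublines, where the number over all miRNAs is not given here. Asking for 10 counts in every library gave 4, 1 and 9 miRNAs. The number tested depends on the filter and on the libraries kept. It is not given here for other filters or for fits without single libraries, so their counts need not be out of 367. Leaving out each library gave 4 to 12 miRNAs for HCT-Oxa-c against HCT116, fewest without HCT116 replicate 2, and 6 to 23 between the sublines, fewest without HCT-FU-c replicate 1 or 2. Members called between the sublines numbered 0 to 3, the 3 arising without HCT-FU-c replicate 3. With the block, leaving out each library gave 2 to 4 members for HCT-Oxa-c and 0 to 3 for HCT-FU-c against HCT116. The blocked HCT-FU-c count was 0 with total counts, where 10 of 367 miRNAs were called, 1 with TMM without miR-21-5p and 1 without the filter. For the other blocked fits named here the number over all miRNAs is not given, so these counts describe the members only. For HCT-Oxa-c, miR-181a-5p (0.93 to 1.17) and miR-181b-5p (1.11 to 1.34) were called under all 15 blocked alternatives, miR-181a-3p under 10 and miR-181c-3p under 7. For HCT-FU-c, miR-181b-5p was called under 9 and miR-181a-3p under 7. Between the sublines the first 3 of these strands were called under all 15 and miR-181c-3p under 11. The cause of these losses was not tested. The fits in which a log2 fold change reversed concerned strands that did not pass in edgeR for that comparison with all 9 libraries, with or without the block. For miR-181d-5p in HCT-Oxa-c against HCT116 (-0.03) the values were 0.0076 with DESeq2's size factors in edgeR, 0.0118 with TMM without miR-21-5p, 0.0079 with DESeq2, 0.0405 without the filter, 0.0577 with 10 counts in every library, 0.0486 with the block, 0.15 in replicates 1 and 2, -0.27 to 0.39 without single libraries and -0.14 to 0.32 so with the block. miR-181a-2-3p ranged from -0.25 to 1.27 in this comparison and from -0.17 to 1.23 between the sublines without single libraries. In HCT-FU-c against HCT116 miR-181a-2-3p (-0.09) gave 0.0413 with total counts, 0.0626 in replicates 1 and 2 and -0.76 to 0.78 without single libraries. Its blocked values were 0.13 with total counts, 0.0063 without the filter, 0.0492 in replicates 1 and 2 and -0.28 to 0.13 without single libraries. miR-181c-5p (0.01) gave -0.0335, -0.0149 and -0.0434 with DESeq2's size factors, TMM without miR-21-5p and DESeq2, -0.0191 with only the 6 libraries compared, -0.0711 in replicates 1 and 2 and -0.25 to 0.21 without single libraries, and with the block -0.0539, -0.0262, -0.0512 and -0.0690 for the first 3 and for replicates 1 and 2, and -0.21 to 0.16. miR-181c-3p (0.13) gave -0.0313 in replicates 1 and 2 and -0.0318 with the block, with -0.0902 to 0.37 and -0.0879 to 0.56 without single libraries, and miR-181d-5p (-0.43) gave -1.17 to 0.0077. All 108 alternative values of the strand ratios moved by less than 1 SD, the pooled SD of the log2 ratio between libraries of the lines compared. That limit is wide, and the change of sign for miR-181a-3p to miR-181a-2-3p without HCT116 replicate 3 stayed within it. The alternatives with the replicate block could not move, since the mean difference within replicate numbers equals the difference of means. The depth limits the strands of MIR181C and MIR181D, at 0 to 49 counts a library.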
